A study of Mus musculus with 35 samples.

Results

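Forced expression of Dnmt1 in cells with a catalytic-site mutation of TET3 was examined in 4 of the 35 samples of the series, 2 libraries transfected with a Dnmt1 construct and 2 with the empty vector (EV), all in Tet3m/m cells. The members were taken from the sample labels. The same experiment held 2 Dnmt1 and 2 EV libraries each in Tet3+/+ and Tet3-/- cells, 12 libraries in all. Both Tet3+/+ EV libraries carry 1 and the same name in the deposited table, so their numbers are not known and they are given in column order. All were mouse embryonic stem cells (ESCs) differentiated toward neuroectoderm (NE) by withdrawal of LIF and 1 uM retinoic acid (RA) for 72 hours, and polyadenylated RNA was sequenced. Tet3m/m cells carry substitutions in the iron-binding site of TET3, made by gene editing and meant to remove catalysis, and TET3 protein was not measured here. Tet3-/- cells carry a deletion of an early exon of Tet3. The Dnmt1 plasmid coded for a myc-tagged DNMT1 under a CAG promoter together with blasticidin resistance, and the EV coded for the tag and the resistance alone, so both groups were transfected and selected. The labels number the libraries of a group but do not state whether the 2 came from separate clones or cultures, so the p-values measure the spread between these samples, which may be technical.

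DNMT1 is the maintenance DNA methyltransferase: after replication it copies the methyl mark of the parental strand onto the new strand at CG dinucleotides, guided to such sites by UHRF1. TET enzymes act the other way, oxidising 5-methylcytosine so that it can be lost. Imprinted genes, germline genes and many retroelements are known for their dependence on maintenance methylation, and in differentiating ESCs methylation also accompanies the shutdown of pluripotency genes. The comparison of Dnmt1 with EV in Tet3m/m cells asks which transcripts moved when more Dnmt1 was supplied to cells with the catalytic-site mutation of TET3. Methylation itself was not measured in these 4 libraries.

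The 4 Tet3m/m libraries held 31155842 to 48020404 reads assigned to genes, against 31155842 to 50845950 over all 12. EV library 2 was the shallowest of the 12. EV library 1 held 44732358 reads and the Dnmt1 libraries 46684589 and 48020404. Values are given as normalised read counts (reads divided by the size factor of the library). Log2 fold changes of Dnmt1 over EV compare 2 against 2 libraries and are given ± SE. The SE comes from 1 limma fit of all 12 libraries, with the spread of a gene shared over the 6 groups. It is thus not the spread of the 4 Tet3m/m libraries alone. Adjusted p-values are those of limma with Benjamini-Hochberg adjustment. Markers of the labelled NE state were detected in every Tet3m/m library with Sox1 and Pax6 below and Sox3 above the Tet3+/+ EV libraries. Sox1 was at 881 to 1351 in the 4 Tet3m/m libraries and at 2254 and 2592 in the Tet3+/+ EV libraries, and Pax6 at 231 to 309 against 1041 and 995. Sox3 was at 1100.5 to 1257 against 650.0 and 835. Hes5, a Notch target of neural progenitors, was at 7.15 to 15.6. In bulk RNA, fewer cells of a type and less RNA per cell cannot be told apart. Pluripotency transcripts were higher in Tet3m/m, with Nanog at 14297 to 16482 against 5275 and 5286. Most endoderm markers examined were higher as well. Cubn was at 46595 to 64569 against 10788 and 12257, Gata4 at 9374.5 to 10492 against 3492 and 3794. Sox17 was at 3240 to 3905 against 2155 and 2275, while Ttr overlapped, at 105 to 247 against 71.1 and 118. Tet3 itself was at 1125 and 964 in the Tet3m/m EV libraries and at 2957 and 3075 in the Tet3+/+ EV libraries. In Tet3-/- EV cells it was at 2520.3 and 2571, where a gene-level count does not check the loss of 1 exon. The Tet3m/m EV libraries also stood apart from the Tet3+/+ EV libraries by chromosome, with a median log2 difference of -0.45 over the genes of chromosome 8 and -0.26 over those of chromosome 6. It was -1.03 over the 8 genes of chromosome Y tested. Between Dnmt1 and EV within Tet3m/m, the median was -0.13 over these, and the medians of the autosomes and X lay between -0.02 and 0.03.

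The Dnmt1 transcript rose in Tet3m/m, from 11934 and 11285 with EV to 20244 and 23211 with Dnmt1 (log2 fold change 0.90 ± 0.07, adjusted p = 7.46e-09, n = 2 against 2). The mean of the Dnmt1-transfected libraries was 21728 in Tet3m/m, 23284 in Tet3+/+ and 36617 in Tet3-/-. The log2 fold change was 0.64 ± 0.07 SE in Tet3+/+ and 1.06 ± 0.07 SE in Tet3-/-, with differences of the Tet3m/m value from these of 0.26 ± 0.09 and -0.16 ± 0.09 SE. Neither difference passed the test (limma interaction, adjusted p = 0.226 and 0.275). Reads from the plasmid and from the endogenous gene fall on the same gene and cannot be told apart.

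Genes with a mean of at least 10 over the 12 libraries were tested on log2(normalised count + 1). Across the transcriptome, 444 of 18055 genes tested were differentially expressed genes (DEGs) between Dnmt1 and EV in Tet3m/m in limma, passing 0.05 in adjusted p and 1.5 in fold change in either direction. Of these, 321 were higher with Dnmt1 (1.78% of genes tested) and 123 were lower (0.681%). More than a 2-fold change was found for 153 of the higher and 24 of the lower genes, and the median log2 fold change was 0.98 over the higher and -0.78 over the lower DEGs. In all 444 the 2 Dnmt1 libraries lay on 1 side of the 2 EV libraries, an arrangement that 53.5% of all genes tested showed in either direction. The median log2 fold change over all genes tested was -0.00154, with 8974 of them above 0, a centre that scaling by size factors holds near 0. Without the fold threshold, 1842 genes had an adjusted p under 0.05. By Euclidean distance over all genes tested on the log2 scale, Dnmt1 and EV libraries of Tet3m/m were 63.4 to 67.8 apart, against 59.9 within the EV pair and 50.2 within the Dnmt1 pair. Leaving out 1 library left 321 to 386 DEGs. The number of lower DEGs fell to 72 without EV library 2 and to 79 without Dnmt1 library 2. Counts of DEGs within gene lists are to be read beside the 2 percentages of all genes tested.

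**Figure D1:**
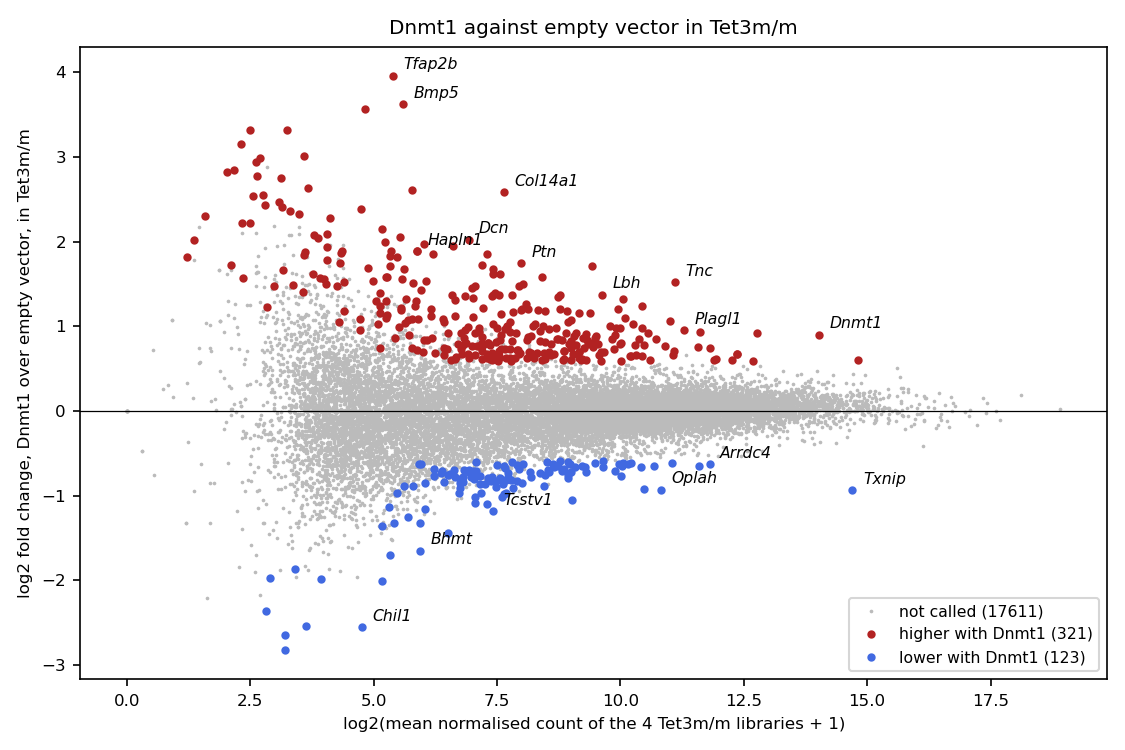
Mean normalised count of the 4 Tet3m/m libraries (x axis, log2 of the mean plus 1) against the log2 fold change of Dnmt1 over EV in Tet3m/m (y axis), 1 point per gene tested. The 321 red points are DEGs higher and the 123 blue points DEGs lower with Dnmt1. Higher DEGs reached a log2 fold change of 3.96 (Tfap2b), while Txnip and Dnmt1 were among the most abundant DEGs.

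Of 23 genes for DNA methylation and demethylation enzymes and their partners, all tested, only Dnmt1 was a DEG. Smaller rises with an adjusted p under 0.05 were measured for Uhrf1, the partner that targets DNMT1, at 11544 and 11506 with EV and 13651 and 13602 with Dnmt1 (log2 fold change 0.24 ± 0.04, adjusted p = 9.28e-04). Dnmt3b, a de novo methyltransferase, was likewise at 5757 and 5711 with EV and 6691 and 6919 with Dnmt1 (log2 fold change 0.25 ± 0.05, adjusted p = 0.00188). Tet2 and Tet3, which code for TET dioxygenases, had log2 fold changes of 0.29 (adjusted p = 0.0351) and 0.28 (adjusted p = 0.022). Dnmt3a was at 9249 and 8304 with EV and 9577 and 9809.8 with Dnmt1 (log2 fold change 0.15 ± 0.05, adjusted p = 0.0743). Tet1 was at 5799.8 and 5885 with EV and 5619 and 6536 with Dnmt1 (log2 fold change 0.05 ± 0.09, adjusted p = 0.803). Neither passed the threshold. The median log2 fold change of the list was 0.12 in Tet3m/m.

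Among the DEGs with the lowest p-values, those with a RefSeq promoter window at hand were Lbh and Ptn, which rose, and Txnip and Arrdc4, which fell. Their promoters are shown because the CG dinucleotide, searched as the letters CG and identical on both strands, is the site at which DNMT1 acts. Each window spans 250 bases before to 50 after the start of transcription (RefSeq, GRCm38.p6) and reads 5' to 3' on the strand of the gene, with every CG in capitals. Lbh lies at chr17:72918055-72918354, plus strand, Ptn at chr6:36810130-36810429, minus strand, Txnip at chr3:96557707-96558006, plus strand, and Arrdc4 at chr7:68749189-68749488, minus strand.
Lbh: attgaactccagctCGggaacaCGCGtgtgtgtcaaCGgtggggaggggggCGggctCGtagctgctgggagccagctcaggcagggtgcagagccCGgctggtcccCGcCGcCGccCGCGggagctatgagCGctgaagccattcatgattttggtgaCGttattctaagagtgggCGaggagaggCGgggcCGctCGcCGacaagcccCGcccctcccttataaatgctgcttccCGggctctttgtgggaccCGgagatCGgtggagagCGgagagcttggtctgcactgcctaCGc
Ptn: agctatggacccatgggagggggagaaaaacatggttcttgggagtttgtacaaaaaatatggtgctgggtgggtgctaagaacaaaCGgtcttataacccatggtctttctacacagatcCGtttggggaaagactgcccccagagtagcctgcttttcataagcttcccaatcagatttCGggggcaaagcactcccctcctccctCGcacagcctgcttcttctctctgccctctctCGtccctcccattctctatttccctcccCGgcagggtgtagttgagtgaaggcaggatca
Txnip: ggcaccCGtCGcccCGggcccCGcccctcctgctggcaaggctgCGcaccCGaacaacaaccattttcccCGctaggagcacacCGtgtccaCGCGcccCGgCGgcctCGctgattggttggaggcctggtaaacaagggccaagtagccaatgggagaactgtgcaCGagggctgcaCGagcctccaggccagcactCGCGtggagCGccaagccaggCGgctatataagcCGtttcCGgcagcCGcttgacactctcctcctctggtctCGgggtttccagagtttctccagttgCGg
Arrdc4: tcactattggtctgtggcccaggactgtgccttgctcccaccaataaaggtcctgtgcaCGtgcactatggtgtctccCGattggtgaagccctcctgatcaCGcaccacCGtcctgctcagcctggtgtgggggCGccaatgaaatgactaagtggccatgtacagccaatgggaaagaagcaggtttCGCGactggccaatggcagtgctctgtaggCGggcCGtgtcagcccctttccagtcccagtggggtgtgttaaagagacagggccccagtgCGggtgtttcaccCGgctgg
The windows held 25 CG in Lbh, 6 in Ptn, 24 in Txnip and 11 in Arrdc4. As many CG or more were found in 33.4%, 88.9%, 36.6% and 76.7% of the promoter windows of tested genes, respectively. A CG-rich and a CG-poor window thus stood in each direction. Windows were at hand for 69.5% of tested genes, 62.9% of the higher and 69.9% of the lower DEGs, under the 80% set as the minimum, so a comparison of CG content between the groups was void.

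The 5 genes that rose with the lowest p-values were Col14a1, Lbh, Ptn, Ccdc80 and Plagl1. Col14a1, a fibril-associated collagen, was at 54.8 and 57.3 with EV and 310.2 and 375 with Dnmt1 (log2 fold change 2.58 ± 0.12, adjusted p = 6.29e-11). Lbh, a transcriptional cofactor of limb and heart development, was at 411 and 462 with EV and 1179 and 1088 with Dnmt1 (log2 fold change 1.38 ± 0.07, adjusted p = 1.32e-10). Ptn, which codes for the heparin-binding growth factor pleiotrophin, was at 111 and 119.8 with EV and 422 and 361 with Dnmt1 (log2 fold change 1.75 ± 0.09, adjusted p = 1.33e-10). Ccdc80, a secreted matrix-associated protein, was at 80.4 and 84.7 with EV and 271 and 240.0 with Dnmt1 (log2 fold change 1.62 ± 0.09, adjusted p = 1.49e-10). In each of these 4 genes the lowest Dnmt1 library was more than 2 times the highest EV library. Plagl1, an imprinted zinc-finger gene, rose in a narrower range, at 1720.0 and 1699.5 with EV and 3189 and 3432 with Dnmt1 (log2 fold change 0.95 ± 0.05, adjusted p = 1.48e-10). All 5 were still below the mean of the Tet3+/+ EV libraries, which was 517 for Col14a1, 2151 for Lbh, 3232 for Ptn, 1049.6 for Ccdc80 and 6917 for Plagl1.

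The largest rises among genes with a mean of at least 50 over the 4 libraries were those of Col14a1 and of the 7 genes that follow. Samd5, a gene with a SAM domain, was at 11 and 18.2 with EV and 84 and 100.5 with Dnmt1 (log2 fold change 2.61 ± 0.20, adjusted p = 1.07e-08). Dcn, the proteoglycan decorin, was at 46.6 and 46.9 with EV and 204 and 184 with Dnmt1 (log2 fold change 2.03 ± 0.15, adjusted p = 8.44e-09). Lgr5, the R-spondin receptor of Wnt signalling, was at 18.3 and 33.9 with EV and 94.8 and 107 with Dnmt1 (log2 fold change 1.97 ± 0.21, adjusted p = 1.26e-06). Cxxc4, which codes for an inhibitor of Wnt signalling with a CXXC zinc finger, was at 34.7 and 43 with EV and 144 and 162 with Dnmt1 (log2 fold change 1.96 ± 0.23, adjusted p = 5.81e-06). Adamts6, a secreted metalloproteinase, was at 21.9 and 26 with EV and 82.2 and 102 with Dnmt1 (log2 fold change 1.90 ± 0.20, adjusted p = 1.65e-06). Hapln1, a link protein of the hyaluronan matrix, was at 21.9 and 26 with EV and 93 and 90.1 with Dnmt1 (log2 fold change 1.89 ± 0.13, adjusted p = 5.2e-09). Rgs5, a regulator of G-protein signalling known from pericytes, was at 21.9 and 41.7 with EV and 107 and 118 with Dnmt1 (log2 fold change 1.86 ± 0.23, adjusted p = 1.2e-05). The Dnmt1 libraries lay above the EV libraries in each, by a factor of more than 2. Cxxc4 with Dnmt1 exceeded its Tet3+/+ EV mean of 113, while the other 6 remained under theirs.

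**Figure D2:**
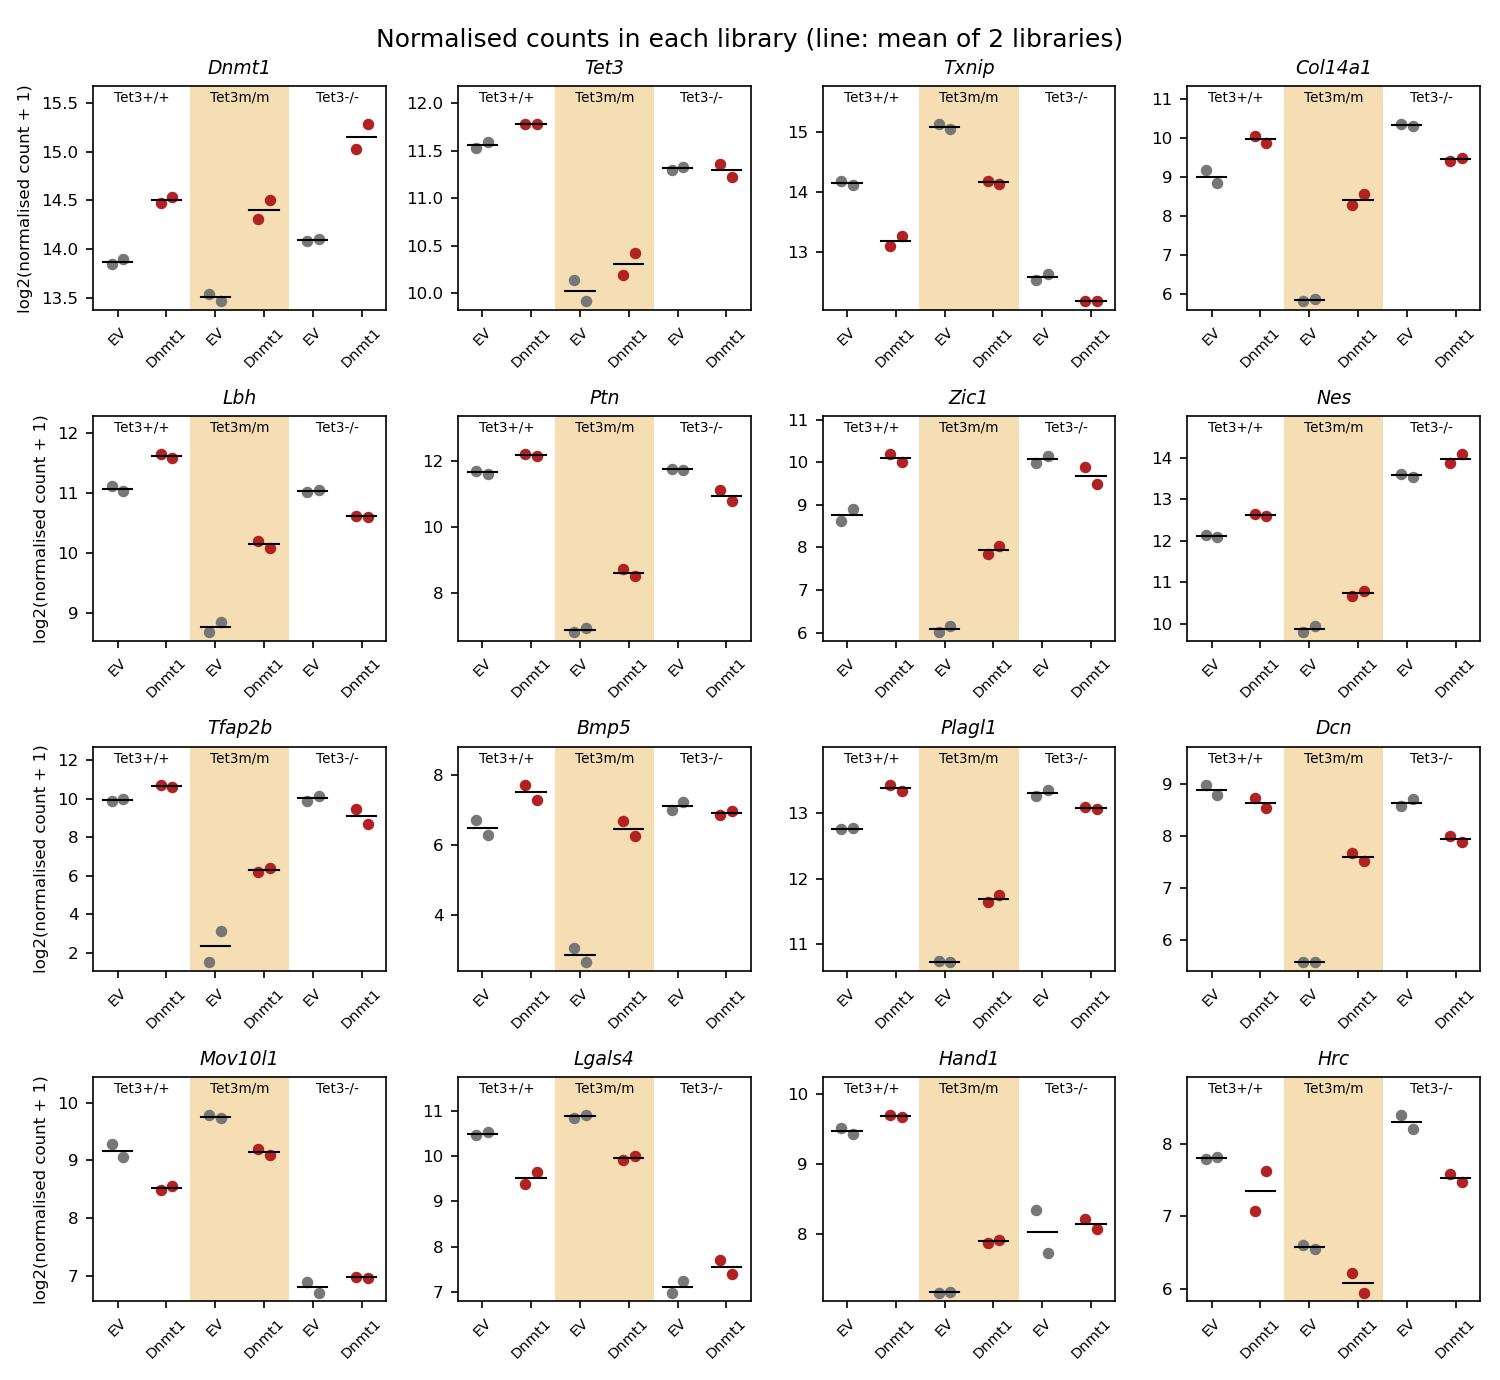
Normalised counts in each of the 12 libraries, as log2(normalised count + 1), for 16 genes; grey points are EV and red points Dnmt1 libraries, the line is the mean of the 2, and the shaded middle of each panel holds Tet3m/m. Axes differ between genes and do not start at 0. Col14a1, Lbh, Ptn, Zic1, Tfap2b and Dcn rose in Tet3m/m from EV levels below those of both other genotypes, and Txnip was lower with Dnmt1 in all 3 genotypes.

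Txnip, which codes for a thioredoxin-binding arrestin that restrains glucose uptake, led the genes that fell, at 35988 and 33943 with EV and 18579 and 18061 with Dnmt1 (log2 fold change -0.93 ± 0.05, adjusted p = 2.45e-10). Its paralogue Arrdc4, another arrestin of the same family, fell too, at 4396 and 4319.8 with EV and 2767 and 2873 with Dnmt1 (log2 fold change -0.63 ± 0.06, adjusted p = 1.54e-07). Both arrestin genes were also lower with Dnmt1 in Tet3+/+, with -0.96 and -0.60 on the log2 scale, and the difference between genotypes did not pass the test (adjusted p = 0.932 and 0.953). Oplah, the 5-oxoprolinase of the glutathione cycle, was at 2504 and 2211 with EV and 1255 and 1217 with Dnmt1 (log2 fold change -0.93 ± 0.10, adjusted p = 9.56e-07). Gm2a, the GM2 ganglioside activator of lysosomes, was at 3864 and 3627 with EV and 2546 and 2231 with Dnmt1 (log2 fold change -0.65 ± 0.07, adjusted p = 2.2e-06). Without Dnmt1 library 2 its fold change of -0.56 on the log2 scale no longer passed the fold threshold. Chil1, a chitinase-like secreted protein, was at 45.7 and 44.3 with EV and 8.94 and 5.20 with Dnmt1 (log2 fold change -2.55 ± 0.29, adjusted p = 4.3e-06).

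The largest falls among genes with a mean of at least 50 depended more on single libraries. Bhmt, a methyltransferase of homocysteine metabolism, was at 92.3 and 91.2 with EV and 30.4 and 26.9 with Dnmt1 (log2 fold change -1.65 ± 0.47, adjusted p = 0.028). Meltf, melanotransferrin, was at 149 and 115 with EV and 59 and 38.1 with Dnmt1 (log2 fold change -1.44 ± 0.43, adjusted p = 0.0353). Lamc3, a laminin chain, was at 79.5 and 63.8 with EV and 32.2 and 26.9 with Dnmt1 (log2 fold change -1.25 ± 0.37, adjusted p = 0.0353). Gm7789 was at 95 and 78.1 with EV and 34.9 and 32.9 with Dnmt1 (log2 fold change -1.32 ± 0.40, adjusted p = 0.039). These 4 calls were lost when any 1 of the 4 Tet3m/m libraries was left out, with adjusted p between 0.0659 and 0.26 and log2 fold changes between -1.75 and -1.09. Tcstv1, a 2-cell-embryo gene in a cluster of near-identical copies, was at 216 and 250.05 with EV and 132 and 78 with Dnmt1 (log2 fold change -1.18 ± 0.28, adjusted p = 0.00861). Lynx1, a modulator of acetylcholine receptors, was at 96.9 and 83.3 with EV and 41.1 and 38.1 with Dnmt1 (log2 fold change -1.16 ± 0.27, adjusted p = 0.00794). Col20a1, a collagen, was at 182 and 173 with EV and 69.7 and 99.6 with Dnmt1 (log2 fold change -1.08 ± 0.24, adjusted p = 0.0048). AC133095.2 was at 223 and 204 with EV and 105 and 93.6 with Dnmt1 (log2 fold change -1.10 ± 0.25, adjusted p = 0.00678). Without Dnmt1 library 2 the calls of Tcstv1, Lynx1 and AC133095.2 were lost (Tcstv1 -0.81, adjusted p = 0.172; Lynx1 -1.11, adjusted p = 0.0624; AC133095.2 -1.01, adjusted p = 0.0742). The call of Tcstv1 was lost also without EV library 2 (Tcstv1 -1.08, adjusted p = 0.091), those of Lynx1 and AC133095.2 without EV library 1 (Lynx1 -1.06, adjusted p = 0.0763; AC133095.2 -1.03, adjusted p = 0.0672), and that of Col20a1 without Dnmt1 library 1 (Col20a1 -0.83, adjusted p = 0.101).

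Neural progenitor genes were examined first, since NE is the fate these cells are directed to. Of 22 progenitor factors tested, 4 were DEGs higher with Dnmt1, none was a DEG lower, and 18 did not pass, with a median log2 fold change of 0.27. Nes, the intermediate filament nestin of neural progenitors, was at 897 and 986 with EV and 1632 and 1772 with Dnmt1 (log2 fold change 0.85 ± 0.06, adjusted p = 1.05e-08). Zic1, a zinc-finger factor of the dorsal neural plate, was at 64 and 70.3 with EV and 229 and 263 with Dnmt1 (log2 fold change 1.86 ± 0.14, adjusted p = 1.07e-08), which left it under the Tet3+/+ EV mean of 437. Pax3, a paired-box factor of the dorsal neural tube, was at 96.9 and 109 with EV and 169.8 and 181 with Dnmt1 (log2 fold change 0.76 ± 0.14, adjusted p = 9.34e-04). Hes3, a Notch-pathway repressor, had no read in either EV library and was at 7.15 and 8.66 with Dnmt1, at least 2.38-fold higher than a floor of 3 reads per library. Other members did not pass. Sox1, the earliest NE factor, was at 881 and 929 with EV and 1351 and 1203 with Dnmt1 (log2 fold change 0.49 ± 0.11, adjusted p = 0.00418), below the fold threshold. Pax6, a later progenitor factor, was at 231 and 309 with EV and 281 and 274 with Dnmt1 (log2 fold change 0.05 ± 0.12, adjusted p = 0.851). Of 24 proneural and neuronal genes, 3 were DEGs higher and none lower in Tet3m/m, with a median of 0.04. In Tet3+/+ the median of this list was 0.60, with 4 DEGs higher and none lower. The progenitor list had a median of 0.33 there, with 3 higher and none lower, beside 0.421% of all genes tested. In Tet3-/- the 2 medians were -0.31 and -0.24. In Tet3m/m, Tubb3, the neuronal tubulin, was at 729 and 771 with EV and 1302 and 1321 with Dnmt1 (log2 fold change 0.81 ± 0.09, adjusted p = 5.08e-06). Ebf2, a transcription factor of early neurons, was at 24.7 and 15.6 with EV and 45.6 and 50.2 with Dnmt1 (log2 fold change 1.24 ± 0.27, adjusted p = 0.00425). The call of Ebf2 was lost without EV library 2 (Ebf2 0.93, adjusted p = 0.0692).

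Neural crest genes, whose cells arise at the border of the neural plate, were examined next. Of 13 tested, 6 were DEGs higher with Dnmt1 and none lower, with a median log2 fold change of 0.51. Tfap2b, an AP-2 factor of the crest, had the largest log2 fold change of all DEGs in the limma fit. It was at 1.83 and 7.81 with EV and 71.5 and 82.3 with Dnmt1 (log2 fold change 3.96 ± 0.32, adjusted p = 2.41e-08), against 933 and 1017 in Tet3+/+ EV. EV library 1 lay under a floor of 3 reads, which is 2.74 in that library, so the size of this rise is uncertain. Tfap2a, the paralogue of Tfap2b, was at 129 and 109 with EV and 122 and 108 with Dnmt1 (log2 fold change -0.04 ± 0.18, adjusted p = 0.919). Sox9, an SRY-box factor of crest and cartilage, was at 674 and 646 with EV and 1279 and 1194 with Dnmt1 (log2 fold change 0.90 ± 0.07, adjusted p = 1.56e-08). Msx1, a homeobox factor, was at 469.8 and 470.1 with EV and 751 and 693 with Dnmt1 (log2 fold change 0.62 ± 0.07, adjusted p = 1.36e-06). Twist1, a basic helix-loop-helix factor of migrating crest and mesenchyme, was at 557 and 613 with EV and 949 and 903 with Dnmt1 (log2 fold change 0.66 ± 0.09, adjusted p = 1.96e-05). Snai2 and Foxd3, which also specify crest, were DEGs with log2 fold changes of 0.78 and 0.84. Sox10, a later crest factor, was at 149 and 143 with EV and 171 and 159 with Dnmt1 (log2 fold change 0.17 ± 0.24, adjusted p = 0.737). Without Dnmt1 library 1, 3 of the 6 calls in this list were left, and Msx1 was at 0.56, adjusted p = 1.13e-04, under the fold threshold.

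Mesodermal and muscle genes, which belong to other fates than NE, were examined in the same way. Of 18 primitive streak and mesoderm genes, 4 were DEGs higher and none lower (median 0.15). Hand1, a helix-loop-helix factor of lateral mesoderm and heart, was at 142 and 142 with EV and 232 and 240.0 with Dnmt1 (log2 fold change 0.73 ± 0.15, adjusted p = 0.00311). In Tet3+/+ EV it stood at 735 and 686, above all 4 Tet3m/m libraries. Hand2, its relative in heart and limb, was at 80.4 and 112 with EV and 255 and 249 with Dnmt1 (log2 fold change 1.40 ± 0.15, adjusted p = 1.11e-06). Wnt3a, a ligand of the streak, was at 5.48 and 2.60 with EV and 10.7 and 26 with Dnmt1 (log2 fold change 1.88 ± 0.49, adjusted p = 0.0156). Fgf8, a ligand of the streak and of the midbrain organiser, was at 83.2 and 92.5 with EV and 228 and 185 with Dnmt1 (log2 fold change 1.22 ± 0.34, adjusted p = 0.0255). The Fgf8 call was lost when any 1 of the 4 libraries was left out (adjusted p between 0.0898 and 0.211). That of Wnt3a was lost without EV library 2 or Dnmt1 library 2 (Wnt3a 1.46, adjusted p = 0.148; Wnt3a 1.28, adjusted p = 0.228). Of 21 cardiac and muscle genes, 5 were DEGs higher and none lower (median -0.04). The contractile genes Acta2 (smooth muscle actin), Tagln (transgelin) and Myl9 (myosin light chain) led, with Acta2 at 1147 and 1539 with EV and 2726 and 2837 with Dnmt1 (log2 fold change 1.06 ± 0.10, adjusted p = 5.38e-07). Tagln and Myl9 had log2 fold changes of 0.92 and 0.70. Tnnt2, cardiac troponin T, was at 5.48 and 7.81 with EV and 24.1 and 19 with Dnmt1, a call that was lost without EV library 1 or Dnmt1 library 1 (Tnnt2 1.35, adjusted p = 0.0633; Tnnt2 1.41, adjusted p = 0.082). Hrc, a calcium-binding protein of the sarcoplasmic reticulum, was at 96 and 92.5 with EV and 73.3 and 60.6 with Dnmt1 (log2 fold change -0.49 ± 0.20, adjusted p = 0.126), lower in both Dnmt1 libraries but not past the threshold. Of 16 vascular genes, 1 was higher and 1 lower. The VEGF receptor gene Flt1 was at 963 and 1008 with EV and 1555 and 1553 with Dnmt1 (log2 fold change 0.66 ± 0.08, adjusted p = 7.36e-06). The receptor gene Tie1 of endothelium was at 576 and 649 with EV and 350.4 and 372 with Dnmt1 (log2 fold change -0.76 ± 0.19, adjusted p = 0.0125). The Tie1 call was lost without EV library 2 (Tie1 -0.67, adjusted p = 0.122), without Dnmt1 library 1 (Tie1 -0.71, adjusted p = 0.0988) and without Dnmt1 library 2 (Tie1 -0.80, adjusted p = 0.0594).

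Wnt ligands act through Frizzled receptors on beta-catenin and LEF/TCF factors, and LGR receptors with R-spondins strengthen the signal. Of 20 Wnt ligands, antagonists and targets, 6 were DEGs higher with Dnmt1 and none lower, with a median of 0.31. Among ligands and agonists, Wnt11 was at 281 and 271 with EV and 539.9 and 551 with Dnmt1 (log2 fold change 0.98 ± 0.12, adjusted p = 9.76e-06). The R-spondin gene Rspo3 was at 81.3 and 70.3 with EV and 131 and 132 with Dnmt1 (log2 fold change 0.79 ± 0.13, adjusted p = 3.68e-04). The nuclear effector Lef1 was at 133 and 145 with EV and 302 and 251 with Dnmt1 (log2 fold change 0.99 ± 0.13, adjusted p = 1.86e-05). Sp5, a direct target, was at 96.9 and 107 with EV and 295 and 237 with Dnmt1 (log2 fold change 1.37 ± 0.13, adjusted p = 3.05e-07). Notum, a target that inactivates Wnt ligands, had a log2 fold change of 0.75 (adjusted p = 9.04e-04). Axin2, the most widely used target, was at 948 and 1057 with EV and 1072 and 969 with Dnmt1 (log2 fold change 0.03 ± 0.08, adjusted p = 0.887), not past the threshold.

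BMP ligands keep cells from neural fate, and secreted antagonists bind them outside the cell. Of 16 BMP ligands, antagonists and Id targets, 4 were DEGs higher and none lower (median 0.15, beside -0.07 in Tet3+/+ and -0.09 in Tet3-/-). The lowest member was at -1.18 on the log2 scale and was not a DEG. The 4 DEGs were 2 ligands and 2 antagonists. The ligand gene Bmp5 was at 7.31 and 5.21 with EV and 102 and 75.4 with Dnmt1 (log2 fold change 3.63 ± 0.28, adjusted p = 1.29e-08). Bmp4, the ligand that opposes neural fate, was at 272 and 238 with EV and 476 and 427 with Dnmt1 (log2 fold change 0.82 ± 0.09, adjusted p = 2.96e-06). Fst, which codes for the antagonist follistatin, was at 517 and 698 with EV and 1645 and 1374 with Dnmt1 (log2 fold change 1.32 ± 0.12, adjusted p = 1.96e-07). Nog, which codes for noggin, was at 97.8 and 134 with EV and 165 and 187 with Dnmt1 (log2 fold change 0.61 ± 0.14, adjusted p = 0.00789). The Nog call was lost without EV library 1 or Dnmt1 library 2 (Nog 0.39, adjusted p = 0.156; Nog 0.53, adjusted p = 0.0931). Of 18 FGF ligands and feedback targets only Spred3, an inhibitor of ERK signalling, was a DEG, with a log2 fold change of 0.60. Its call was lost without EV library 1 or Dnmt1 library 2 (Spred3 0.51, adjusted p = 0.0132; Spred3 0.48, adjusted p = 0.0181).

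Retinoic acid drives the differentiation used here, through RAR receptors that act directly on Hox genes. Of 20 RA pathway genes, 2 were DEGs higher and none lower (median 0.07). Rdh10, which oxidises retinol in RA synthesis, was at 555 and 645 with EV and 1411 and 1344 with Dnmt1 (log2 fold change 1.20 ± 0.07, adjusted p = 1.96e-10). Crabp1, a cytoplasmic RA-binding protein, was at 844 and 1013 with EV and 1698 and 1493 with Dnmt1 (log2 fold change 0.78 ± 0.13, adjusted p = 3.77e-04). The receptor gene Rarb, itself an RA target, was at 526 and 488 with EV and 551 and 498 with Dnmt1 (log2 fold change 0.05 ± 0.08, adjusted p = 0.79). Of 34 Hox genes tested, 3 were DEGs higher, 1 was lower and the median was -0.09. The 3 that rose belong to the HoxC cluster. Hoxc6 was at 89.6 and 116 with EV and 191 and 185 with Dnmt1 (log2 fold change 0.88 ± 0.14, adjusted p = 2.28e-04). Hoxc8 was at 282 and 319 with EV and 560.5 and 522 with Dnmt1 (log2 fold change 0.85 ± 0.09, adjusted p = 2.65e-06). Hoxc9 followed at 423 and 573 with EV and 913 and 815 with Dnmt1 (log2 fold change 0.81 ± 0.11, adjusted p = 3.87e-05). Hoxb5 fell, at 1416 and 1436 with EV and 924 and 943 with Dnmt1 (log2 fold change -0.61 ± 0.08, adjusted p = 1.77e-05). Hoxb1 and Hoxb4 of the same cluster were lower with an adjusted p under 0.05 but below the fold threshold. Hoxb1 was at 2667 and 2622 with EV and 1776 and 2086 with Dnmt1 (log2 fold change -0.46 ± 0.07, adjusted p = 1.21e-04). Hoxb4 was at 1706 and 1588 with EV and 1223 and 1183 with Dnmt1 (log2 fold change -0.45 ± 0.06, adjusted p = 4.52e-05).

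Among cell cycle genes, Ccnd1, which codes for cyclin D1, was at 772 and 822 with EV and 1654 and 1600.0 with Dnmt1 (log2 fold change 1.03 ± 0.06, adjusted p = 6.48e-10). The CDK inhibitor gene Cdkn2b had a log2 fold change of 0.60, a call lost without EV library 1 (Cdkn2b 0.58, adjusted p = 0.0116). The other 6 of 8 cyclin D and CDK inhibitor genes did not pass, with a median of 0.26 over the list.

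Imprinted genes are expressed from 1 parental allele and rely on methylation that DNMT1 maintains. Of 36 imprinted genes tested, 7 were DEGs higher with Dnmt1, none was a DEG lower and 29 did not pass, and the median log2 fold change was 0.13. They were Plagl1, Peg3, Usp29, Igf2, Peg12, Mest and Rtl1. Peg3, a zinc-finger gene, was at 22493 and 23016 with EV and 32661 and 36301 with Dnmt1 (log2 fold change 0.60 ± 0.05, adjusted p = 1.23e-08). Its neighbour Usp29 was at 311 and 345 with EV and 605 and 637 with Dnmt1 (log2 fold change 0.92 ± 0.08, adjusted p = 9.45e-08). Igf2, which codes for an insulin-like growth factor, was at 3099 and 3110.0 with EV and 4789 and 4726 with Dnmt1 (log2 fold change 0.62 ± 0.05, adjusted p = 2.98e-08). Peg12 was at 384 and 375 with EV and 653 and 619 with Dnmt1 (log2 fold change 0.74 ± 0.10, adjusted p = 2.36e-05) and Mest at 135 and 121 with EV and 195 and 197 with Dnmt1. Rtl1, a retrotransposon-derived gene of the placenta, was at 67.6 and 56 with EV and 107 and 129 with Dnmt1 (log2 fold change 0.92 ± 0.27, adjusted p = 0.0296). Peg10 and Zim1, with log2 fold changes of 0.51 and 0.51, missed the fold threshold but not that of the adjusted p (3.91e-08 and 8.47e-05). H19, Meg3 and Cdkn1c were among those that did not pass, and a difference by parental origin was not tested. H19 was at 7523 and 7947 with EV and 8741 and 8373 with Dnmt1 (log2 fold change 0.15 ± 0.05, adjusted p = 0.0506). Meg3 was at 13290.3 and 13010.3 with EV and 12946 and 14149 with Dnmt1 (log2 fold change 0.04 ± 0.07, adjusted p = 0.775). The growth inhibitor gene Cdkn1c was at 2938 and 3193 with EV and 3518 and 3059.7 with Dnmt1 (log2 fold change 0.10 ± 0.06, adjusted p = 0.378). Summed over the list, the values were 220225 to 221859 with EV, 258791 to 268248 with Dnmt1 and 442519 to 450265 in Tet3+/+ EV. Leaving out 1 library left 5 or 6 of the 7 calls. Without EV library 1 or Dnmt1 library 2, Peg3 fell under the fold threshold (Peg3 0.58, adjusted p = 3.73e-06; Peg3 0.52, adjusted p = 6.04e-07). In Tet3+/+ the median of this list was 0.12, with 3 DEGs higher and none lower, beside 0.421% of all genes tested that were higher. In Tet3-/- it was -0.13, with none higher and 1 lower, beside 1.02% that were lower. Allele of origin cannot be read from gene-level counts.

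Germline genes with CG-rich promoters are known to be held silent by DNA methylation in somatic cells. In Tet3m/m, 25 of 29 tested germline genes were lower with Dnmt1, with a median log2 fold change of -0.31, but only 1 was a DEG. That gene, Mov10l1, a helicase of the piRNA pathway, was at 881 and 853 with EV and 588 and 543 with Dnmt1 (log2 fold change -0.62 ± 0.13, adjusted p = 0.00272). Tuba3a, Zcwpw1, Mael and Stag3 had log2 fold changes of -0.56, -0.47, -0.38 and -0.35 with an adjusted p under 0.05, short of the fold threshold. Dazl, a germ-cell RNA-binding protein, was at 2795 and 2804 with EV and 1949.6 and 2005 with Dnmt1 (log2 fold change -0.50 ± 0.16, adjusted p = 0.0546). Ddx4, the germline helicase VASA, was at 2044 and 2198 with EV and 1723 and 1701 with Dnmt1 (log2 fold change -0.31 ± 0.10, adjusted p = 0.0566). Neither passed the threshold. The summed values of the list were 19437 to 19692 with EV and 15450.1 to 15635 with Dnmt1. Genes of the 2-cell embryo, which a small share of ESCs expresses and which sit in repeated clusters, were lower as well: all 13 tested had a log2 fold change under 0, with a median of -0.34, and 2 were DEGs. Zscan4c, the best known of them, was at 3601 and 4050.3 with EV and 2879 and 3180.1 with Dnmt1 (log2 fold change -0.34 ± 0.08, adjusted p = 0.0103). Gm21761 was at 1166 and 1412 with EV and 901 and 774 with Dnmt1 (log2 fold change -0.62 ± 0.14, adjusted p = 0.00522), and Tcstv1 was given above. Because such genes have near-identical copies, the split of reads between them is uncertain. No germline gene was a DEG without Dnmt1 library 2, where Mov10l1 was at -0.56, and no 2-cell gene without Dnmt1 library 2 or without EV library 2. Gm21761 was then at -0.51, adjusted p = 0.0914, and at -0.48, adjusted p = 0.109.

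Pluripotency and endoderm genes, both higher in Tet3m/m EV than in Tet3+/+ EV by medians of 1.45 and 1.17 on the log2 scale, showed few changes with Dnmt1. None of 15 naive pluripotency genes was a DEG (median 0.09). The members furthest from 0 were Nr0b1, a nuclear receptor, at 887 and 906 with EV and 1343 and 1276 with Dnmt1 (log2 fold change 0.54 ± 0.19, adjusted p = 0.0786), and Dppa3, a maternal factor that limits UHRF1. Dppa3 was at 182 and 151 with EV and 122 and 141 with Dnmt1 (log2 fold change -0.33 ± 0.25, adjusted p = 0.467). Of 12 core and primed pluripotency genes, 1 was a DEG, Tdgf1, the Nodal co-receptor Cripto, at 3784 and 4276 with EV and 6383 and 6482 with Dnmt1 (log2 fold change 0.68 ± 0.10, adjusted p = 7.29e-05). No endoderm gene of 22 was a DEG (median -0.11), and Ttr and Afp, which code for serum proteins, were furthest from 0. Ttr was at 105 and 149.8 with EV and 213 and 247 with Dnmt1 (log2 fold change 0.86 ± 0.34, adjusted p = 0.126). Afp was at 51.2 and 69 with EV and 119.8 and 97 with Dnmt1 (log2 fold change 0.85 ± 0.47, adjusted p = 0.292). Ttr passed with edgeR and DESeq2 on recovered reads and when the 4 libraries were fitted alone (limma adjusted p = 0.0248). Of 21 interferon-stimulated and antigen presentation genes, Ifit1 was higher, at 20.1 and 7.81 with EV and 41.1 and 45 with Dnmt1 (log2 fold change 1.69 ± 0.38, adjusted p = 0.00615). Ifi27 was lower, at 119 and 158 with EV and 58.1 and 83.2 with Dnmt1 (log2 fold change -0.97 ± 0.28, adjusted p = 0.0321). Both calls were lost without EV library 2 (Ifit1 1.06, adjusted p = 0.126; Ifi27 -0.76, adjusted p = 0.246), that of Ifit1 also without Dnmt1 library 2 (Ifit1 1.63, adjusted p = 0.0573) and that of Ifi27 also without EV library 1 (Ifi27 -1.17, adjusted p = 0.0549) and without Dnmt1 library 1 (Ifi27 -0.71, adjusted p = 0.281). Of 9 trophoblast and keratin genes, Gata3, a GATA factor, was the 1 DEG, at 167 and 231 with EV and 399 and 392 with Dnmt1 (log2 fold change 1.01 ± 0.11, adjusted p = 2.2e-06).

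The ESCs were kept on feeder fibroblasts, which per the study's methods were depleted by pre-plating before the cells went onto gelatin. Markers of fibroblasts were examined beside the matrix genes that rose. Of 13 fibroblast markers tested, 6 were DEGs higher and 1 was lower, with a median log2 fold change of 0.64. The collagen gene Col1a2 was at 1085 and 1076 with EV and 1704 and 1691 with Dnmt1 (log2 fold change 0.65 ± 0.05, adjusted p = 1.95e-08). Col3a1, another fibrillar collagen, was at 66.7 and 96.4 with EV and 238 and 282 with Dnmt1 (log2 fold change 1.68 ± 0.13, adjusted p = 1.29e-08). Prrx1, a homeobox factor of limb mesenchyme, was at 21.9 and 33.9 with EV and 99.2 and 64.1 with Dnmt1 (log2 fold change 1.51 ± 0.22, adjusted p = 9.98e-05). Postn, the matrix protein periostin, was at 18.3 and 54.7 with EV and 85.8 and 102 with Dnmt1, Twist2, a mesenchymal factor, at 15.5 and 0 with EV and 50.1 and 44.2 with Dnmt1, and Dcn is given above. Mgp, matrix Gla protein, was lower, at 20.1 and 26 with EV and 3.58 and 6.93 with Dnmt1 (log2 fold change -1.99 ± 0.58, adjusted p = 0.0321). The surface marker Thy1 and the receptor gene Pdgfrb did not pass. Thy1 was at 314 and 361 with EV and 299 and 241 with Dnmt1 (log2 fold change -0.33 ± 0.21, adjusted p = 0.375). Pdgfrb was at 905 and 935 with EV and 905 and 906 with Dnmt1 (log2 fold change -0.02 ± 0.07, adjusted p = 0.89). Lum, lumican, was near the floor, at 7.31 and 13 with EV and 16.1 and 15.6 with Dnmt1. Summed over the list, the values were 7271 to 7345 with EV, 9145 to 9167 with Dnmt1 and 28201 to 30515 in Tet3+/+ EV, and no member was at 0 in all 4 Tet3m/m libraries. Between 5 and 7 of the 7 calls in this list were left without 1 library. The part of such cells in the rises above was not tested.

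The Tet3+/+ libraries held many of the rising transcripts at high levels, and the increase with Dnmt1 was also set against them. By a rule set after the values were seen, 8 genes had a mean of at least 1000 in Tet3+/+ EV and at least 16 times the Tet3m/m EV mean. Their increase with Dnmt1 ranged from -0.018% to 8.79% of the Tet3+/+ Dnmt1 level. Mest rose by 0.199% of it, from 135 and 121 to 195 and 197, beside 28927 in Tet3+/+ EV. Rhox6, a homeobox gene of the X-linked Rhox cluster, was at 124 and 115 with EV and 127 and 111 with Dnmt1, and Rhox9, its neighbour, at 137 and 93.8 with EV and 139 and 100.5 with Dnmt1. Col3a1 rose by 4.63%, Ptn by 5.97% and Sema3d, a semaphorin, by 8.79%. The median over the 8 was 2.57%, and since the rule used the same EV means, nothing is read from it.

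Of the 27 gene lists, 7 held no DEG, and 58 distinct members were DEGs higher and 7 lower. Besides naive pluripotency and endoderm, those without a DEG were the targets of actin-SRF and YAP (median 0.17), p53 and its targets (0.04), the ATF4 and unfolded protein response (-0.08), glycolysis and hypoxia (-0.05) and cholesterol and fatty acid synthesis (0.08). Cytoskeletal genes of the first of these had adjusted p under 0.05 without reaching the fold threshold, with Tpm1, a tropomyosin, at 12725 and 14507 with EV and 19447 and 18257 with Dnmt1 (log2 fold change 0.47 ± 0.07, adjusted p = 6.44e-05). Flna, filamin A, was at 22505 and 23222 with EV and 30723 and 31298 with Dnmt1 (log2 fold change 0.44 ± 0.06, adjusted p = 1.38e-05). Trp53 itself was at 7729 and 8143 with EV and 10472 and 10079 with Dnmt1 (log2 fold change 0.37 ± 0.05, adjusted p = 1.46e-05). The death receptor gene Fas was at 11.9 and 13 with EV and 24.1 and 27.7 with Dnmt1 (log2 fold change 1.00 ± 0.32, adjusted p = 0.0547), and passed once genes with a mean under 50 were left out (limma adjusted p = 0.047). In the stress response list Slc7a11, the cystine transporter, was at 7.31 and 9.12 with EV and 19.7 and 26 with Dnmt1 (log2 fold change 1.36 ± 0.48, adjusted p = 0.0788). Nupr1, a stress-induced chromatin protein, was at 62.1 and 61.2 with EV and 34 and 55.4 with Dnmt1 (log2 fold change -0.50 ± 0.34, adjusted p = 0.41). In glycolysis, hexokinase Hk2 and the hypoxia target Ndrg1 had log2 fold changes of 0.27 and -0.29. Fdps and Scd2, enzymes of isoprenoid and fatty acid synthesis, had 0.28 and 0.27.

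**Figure D3:**
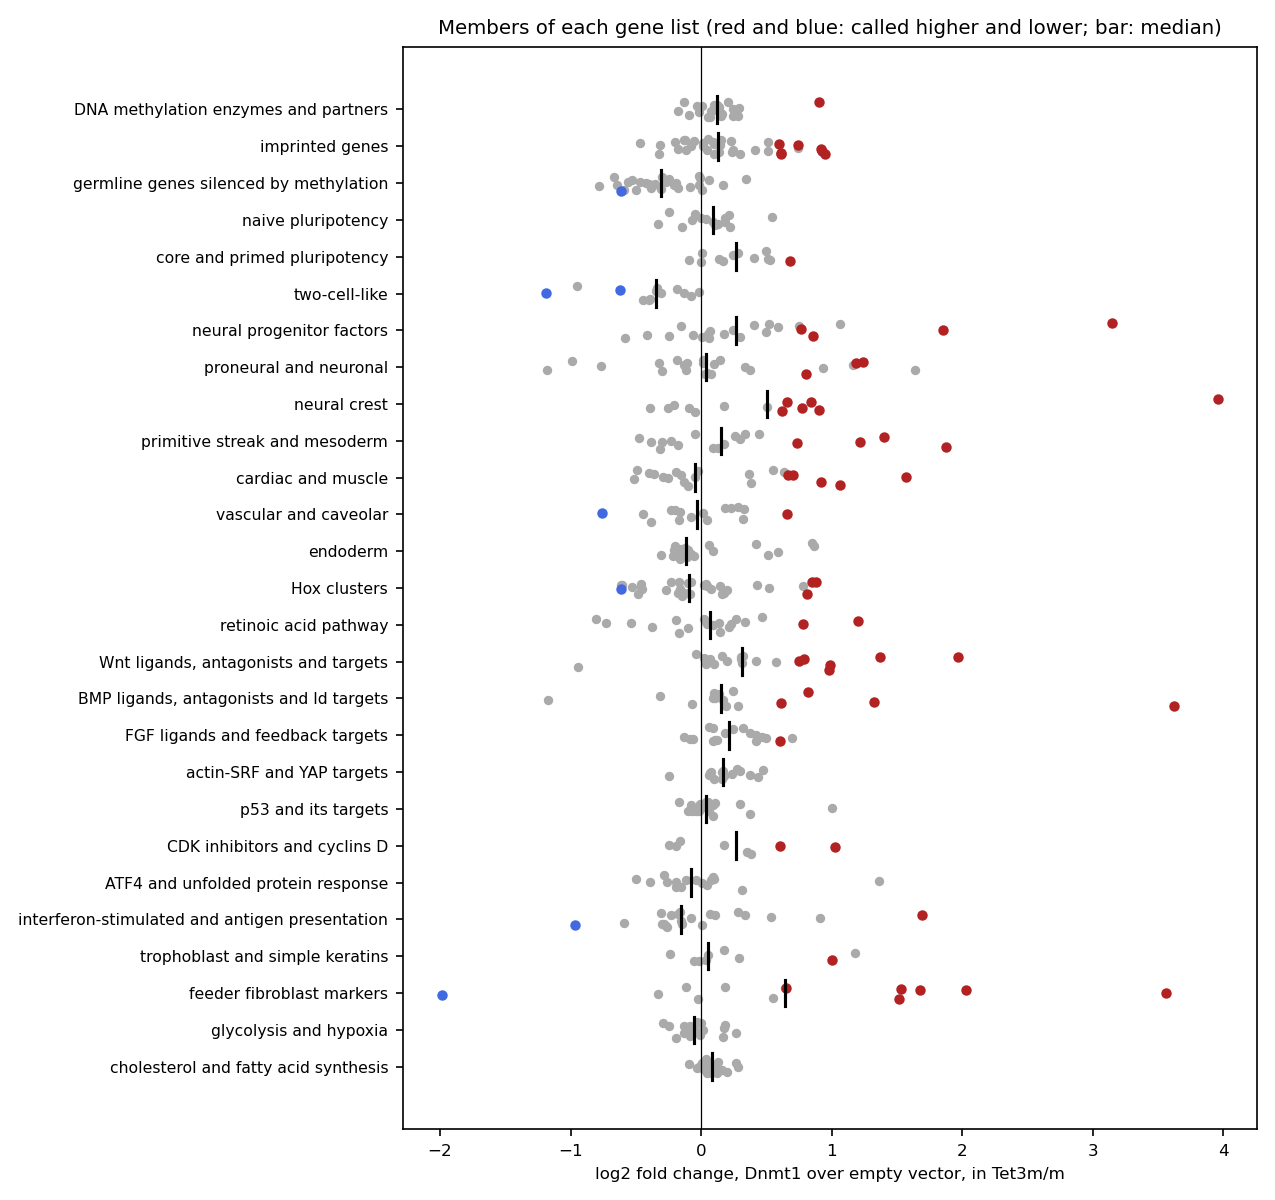
Log2 fold change of Dnmt1 over EV in Tet3m/m (x axis) for each tested member of the 27 gene lists (y axis), 1 point per gene; red and blue points are DEGs higher and lower, and the black bar is the median of the list. Germline and 2-cell-like genes lay mostly below 0 with small differences, while neural crest, Wnt and fibroblast lists held members above 1.

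The response of Tet3m/m was then compared with that of the other genotypes, which were transfected with the same constructs. In Tet3+/+, 76 genes were DEGs higher (0.421% of genes tested) and 136 lower (0.753%), and in Tet3-/-, 453 were higher (2.51%) and 185 lower (1.02%). Of the 321 DEGs higher in Tet3m/m, 38 were DEGs in the same direction in Tet3+/+ and 2 in the opposite direction. In Tet3-/-, 20 were DEGs in the same direction and 35 in the opposite direction. The median log2 fold change of these 321 genes was 0.30 in Tet3+/+ and -0.15 in Tet3-/-. Of the 123 DEGs lower in Tet3m/m, 30 were DEGs in the same direction in Tet3+/+ and none in the opposite, while in Tet3-/- it was 1 and 14. Their medians were -0.40 in Tet3+/+ and -0.01 in Tet3-/-. Both sets were chosen by their change in Tet3m/m, so the size of these medians is not compared with that in Tet3m/m. Across all 18055 genes, the log2 fold changes of Tet3m/m had a Pearson r of 0.27 with those of Tet3+/+ and -0.08 with those of Tet3-/-, which share the constructs and the size-factor scaling but no library with them, and genes are not independent replicates.

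A test of the difference itself (limma interaction) called 109 genes between Tet3m/m and Tet3+/+ (0.604% of genes tested), 94 with a more positive and 15 with a more negative effect in Tet3m/m. Of the 321 higher DEGs, 83 were among the genes called. The DEGs were chosen by the effect in Tet3m/m, which is 1 side of this difference, so nothing is read from such overlaps. The 5 genes with the lowest p-values were Col1a2, Dcn, Ccdc80, Smoc2 and Tnc. Col1a2 rose in Tet3m/m but was lower with Dnmt1 in Tet3+/+, from 7343 and 6748 to 5026 and 5052, a difference of 1.13 ± 0.07 SE on the log2 scale (limma adjusted p = 1.64e-08). Smoc2, a matricellular protein, was at 117 and 130.2 with EV and 326 and 316 with Dnmt1 in Tet3m/m, while in Tet3+/+ its log2 fold change was -0.24 (difference 1.61 ± 0.15 SE). Dcn differed by 2.28 ± 0.21 SE. Tnc, the matrix glycoprotein tenascin C, was at 1015 and 1262 with EV and 3345 and 3184 with Dnmt1 in Tet3m/m and its effect differed by 1.28 ± 0.12 SE. Ccdc80 differed by 1.32 ± 0.12 SE. The adjusted p was 3.65e-06 for each of the last 4. Of the 123 lower DEGs, 4 were among the genes called, beside the 0.604% of all genes tested. Mov10l1 and Txnip had differences of 0.03 ± 0.18 and 0.03 ± 0.08 SE.

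Between Tet3m/m and Tet3-/-, 972 genes were called by the interaction (5.38%), among them 221 of the 321 higher and 53 of the 123 lower DEGs. These overlaps again share the Tet3m/m libraries with the test, and nothing is read from them. The effect in Tet3m/m was more positive for 451 and more negative for 521, but the balance turned to 1372 and 1200 without the fold threshold, and to 446 and 406 or 452 and 378 without EV library 1 or 2 of Tet3m/m. Without Dnmt1 library 1 of Tet3m/m it was 383 and 382. The 5 genes with the lowest p-values were Col1a2, Col14a1, Ptn, Lbh and Ccnd1, and each was higher with Dnmt1 in Tet3m/m and lower in Tet3-/-. Col14a1 fell in Tet3-/- from 1307 and 1273 to 681 and 713, a difference of 3.47 ± 0.18 SE (adjusted p = 7.78e-11). Col1a2 was at 7535 and 7663 with EV and 4027 and 4015 with Dnmt1 in Tet3-/- (difference 1.57 ± 0.07 SE). Ptn, Lbh and Ccnd1 had differences of 2.54 ± 0.13, 1.80 ± 0.10 and 1.60 ± 0.09 SE. In the germline list, 9 members were DEGs higher with Dnmt1 in Tet3-/- and 5 were DEGs lower in Tet3+/+, with medians of 0.43 and -0.40 beside -0.31 in Tet3m/m. The 2-cell list had 9 DEGs higher in Tet3-/- and 5 lower in Tet3+/+, and 11 of its members were called by the interaction with Tet3-/-. Tmem92, a gene in neither list, was at 1282 and 1156 with EV and 824 and 754 with Dnmt1 in Tet3m/m and at 117 and 126 with EV and 261 and 195 with Dnmt1 in Tet3-/-.

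**Figure D4:**
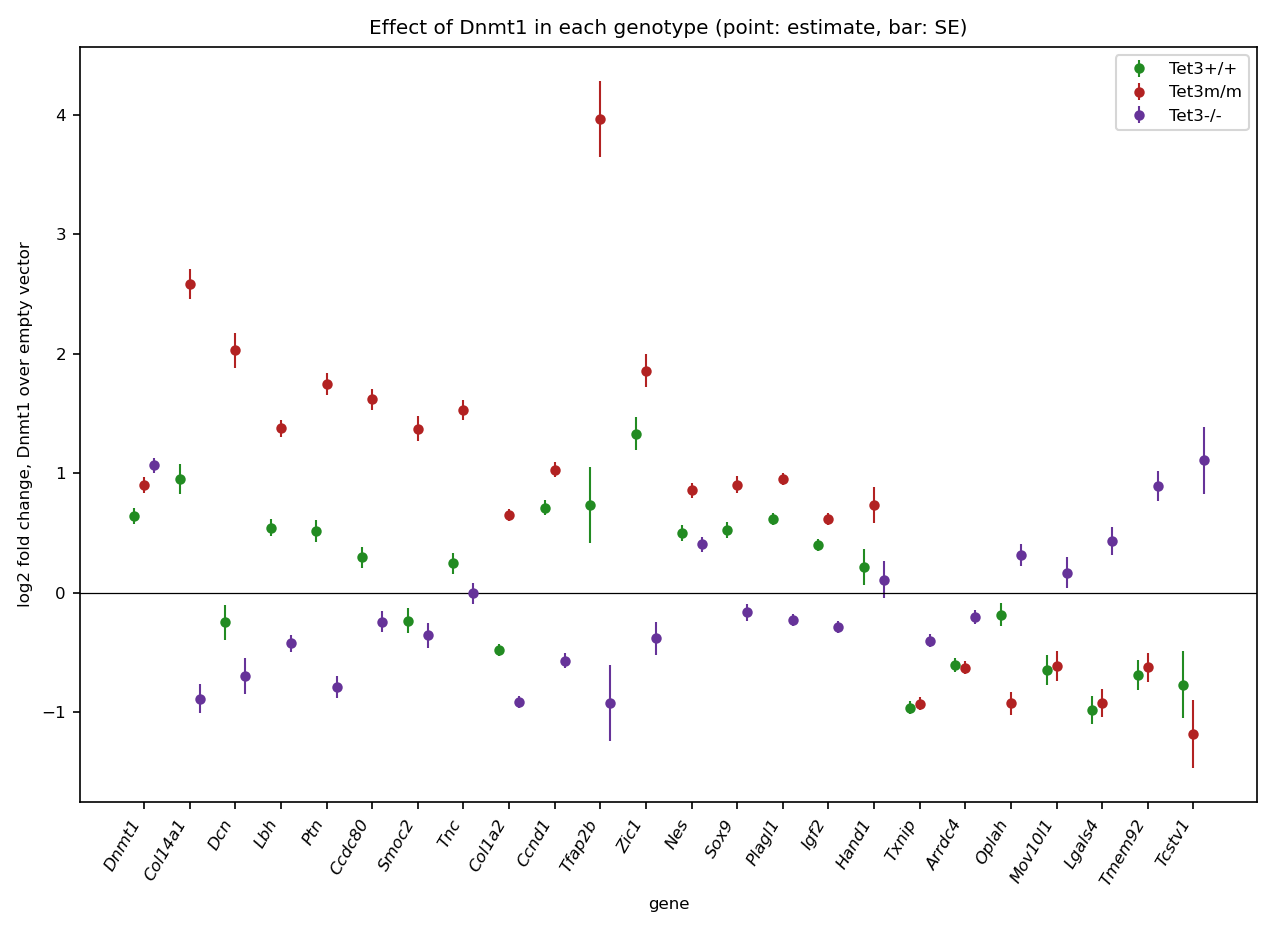
Log2 fold change of Dnmt1 over EV (y axis) for 24 genes (x axis) in Tet3+/+ (green), Tet3m/m (red) and Tet3-/- (purple). Points are limma estimates from 2 against 2 libraries. Bars are SE from the fit of all 12 libraries, so the bars of a gene are equal in the 3 genotypes. Col14a1, Dcn, Ptn and Tfap2b had higher estimates in Tet3m/m than in both other genotypes, Txnip and Arrdc4 were below 0 in all 3, and Col14a1, Ptn and Lbh were below 0 in Tet3-/-.

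Genes deregulated in untransfected Tet3m/m cells were taken from separate libraries of the series, 3 Tet3m/m and 3 Tet3+/+ on day 3 of the same differentiation. The Tet3-/- libraries of that day were in the same fit. There, 907 genes were DEGs higher in Tet3m/m (5.06% of 17915 tested) and 929 lower (5.19%), and 892 and 904 of them were tested in the Dnmt1 experiment. Among the genes lower on day 3, 79 were DEGs higher with Dnmt1 in Tet3m/m, or 8.74% beside the 1.78% of all genes tested, and 19 were DEGs lower, or 2.10% beside 0.681%. Among the genes higher on day 3, 21 were DEGs lower with Dnmt1, or 2.35%, and 13 were DEGs higher, or 1.46%. The median log2 fold change was 0.04 over the genes lower on day 3, of which 57.1% were higher with Dnmt1, and -0.09 over the genes higher on day 3, of which 61.5% were lower. In Tet3+/+ the medians were 0.07 and -0.15, and in Tet3-/- they were -0.17 and 0.34. The count of 21 fell to 8 without EV library 2 and to 5 without Dnmt1 library 2, and the count of 13 fell to 7 without Dnmt1 library 1 or 2 and to 8 without EV library 1.

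The genes lower on day 3 that rose with the lowest p-values were Ptn, Plagl1 and Ccnd1, given above, and Nr2f1, Dach1 and Hmga2. Nr2f1, an orphan nuclear receptor of the nervous system, was at 210.2 and 220.1 with EV and 489 and 489 with Dnmt1 (log2 fold change 1.18 ± 0.07, adjusted p = 6.48e-10). Its log2 difference between Tet3m/m and Tet3+/+ was -0.91 on day 3. Dach1, a nuclear cofactor of eye and limb development, was at 74.9 and 62.5 with EV and 195 and 191 with Dnmt1 (log2 fold change 1.48 ± 0.10, adjusted p = 3.66e-09), after -1.31 on day 3. Hmga2, a chromatin protein of proliferating progenitors, was at 4421 and 5260.1 with EV and 9289.6 and 9015 with Dnmt1 (log2 fold change 0.92 ± 0.06, adjusted p = 5.04e-09), after -0.72. With Dnmt1 each of the 3 was still below its Tet3+/+ EV mean of 2464, 1015 and 15282. Of the genes higher on day 3, those that fell with the lowest p-values were Lgals4, Pramel20, Gm7957, Tmem92, Mov10l1 and Gm21761. Lgals4, which codes for galectin 4, was at 1841 and 1912 with EV and 958 and 1019.6 with Dnmt1 (log2 fold change -0.92 ± 0.12, adjusted p = 1.77e-05). Pramel20, of a multicopy family, was at 1053 and 1298 with EV and 719.6 and 707 with Dnmt1 (log2 fold change -0.71 ± 0.12, adjusted p = 6.46e-04). Gm7957 was at 956 and 1009 with EV and 605 and 642 with Dnmt1 (log2 fold change -0.66 ± 0.13, adjusted p = 0.00206). Tmem92, whose values are given above, had a log2 fold change of -0.63. Without EV library 2 the Pramel20 call was lost (Pramel20 -0.56, adjusted p = 0.0295), and without EV library 1 or Dnmt1 library 2 that of Tmem92 (Tmem92 -0.55, adjusted p = 0.045; Tmem92 -0.56, adjusted p = 0.0396). Lgals4, Pramel20 and Tmem92 were also DEGs lower in Tet3+/+, with -0.98, -0.83 and -0.69 on the log2 scale. So were Gm7957, Mov10l1 and Gm21761, with -0.74, -0.65 and -0.85.

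**Figure D5:**
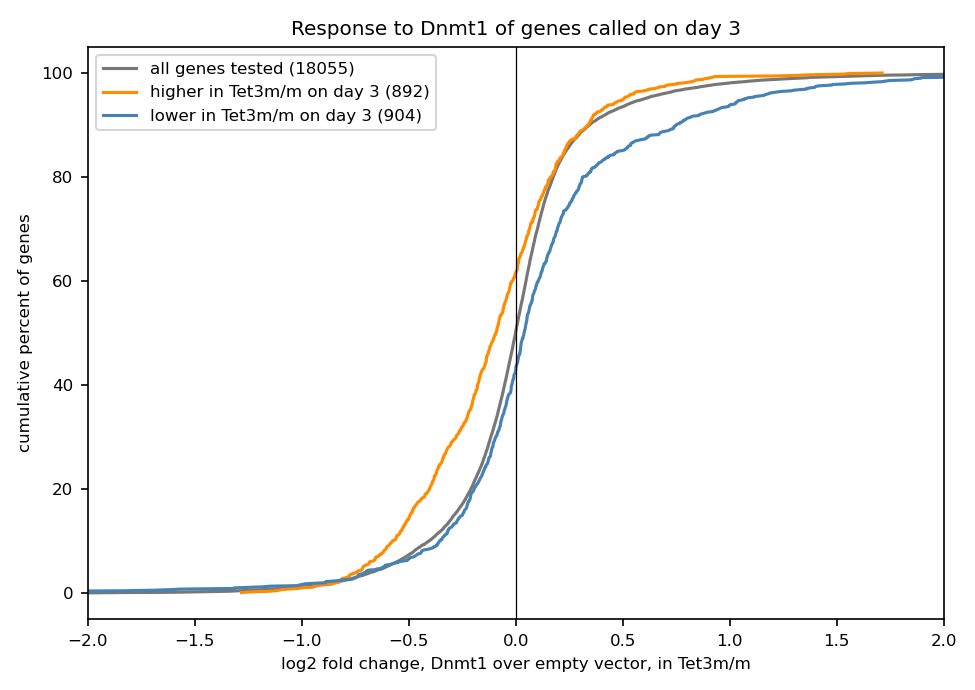
Cumulative percent of genes (y axis) by log2 fold change of Dnmt1 over EV in Tet3m/m (x axis, shown from -2 to 2) for all 18055 genes tested (grey), the 892 genes higher (orange) and the 904 genes lower (blue) in untransfected Tet3m/m than Tet3+/+ cells on day 3. The orange line runs to the left of the grey below 0 and the blue line to the right above 0, with medians of -0.09 and 0.04.

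The direction measured on day 3 was not always that of the EV libraries. Of the 892 genes higher on day 3, 700 were also higher in Tet3m/m EV than in Tet3+/+ EV (median 0.55), and of the 904 genes lower on day 3, 792 were also lower (median -0.80). Several of the leading genes stood much lower in Tet3m/m EV than on day 3. Col14a1 was -3.17 in Tet3m/m EV against Tet3+/+ EV on the log2 scale and 0.66 on day 3, Dcn was -3.31 and -0.25, Tnc -2.26 and 0.77, and Hand1 -2.32 and 0.10. The EV comparison and that of Dnmt1 with EV share the Tet3m/m EV libraries, so the values are given side by side only.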

How the data were processed

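Polyadenylated RNA of mouse NE cells was sequenced in 12 libraries of the Dnmt1 experiment and in 8 untransfected day 3 libraries. These 8, of all 3 genotypes, were in the fit that defined the day 3 gene lists. Per the labels and the study's methods, reads were trimmed (Trim Galore 0.6.7), aligned (STAR 2.7.9a), counted per gene (featureCounts) and divided by DESeq2 size factors by the authors. The genome was mm39 in the methods and mm10 in the submitters' processing notes, so no coordinate was taken from the tables. The deposited values are normalised counts (a scaled signal), and all came back as whole reads within 0.01 once multiplied by the size factor recovered from their steps, with 31155842 to 50845950 reads per library. Depth limits the precision of low genes only.

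Genes with a mean of at least 10 over the 12 libraries were tested (18055 of 18091) on log2(value + 1) with limma 3.58.1 (trend, R 4.3.3). 1 fit of 6 groups was used, and p-values were adjusted by Benjamini-Hochberg over all genes tested. DEGs passed 0.05 in adjusted p and 1.5 in fold change in either direction. Fold changes on this scale understate those of low genes. The same fit on the day 3 table tested 17915 genes of 17948. Differences between genotypes were interaction contrasts. Alternatives were edgeR 4.0.16 and DESeq2 1.42.0 on recovered reads, TMM scaling, other pseudocounts and filters, no fold threshold, the 4 libraries alone, a replicate block and leaving out each library. The fit was tested on simulated data. Figures were drawn with matplotlib 3.10.9.

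Named genes were Dnmt1, Tet3, Hand1 and Hrc, 8 DEGs per direction that changed most, if their groups did not overlap and the mean over the 4 libraries was 50 or more, the 5 DEGs per direction with the lowest p, up to 4 DEGs per gene list with the lowest p (or the 2 members with the largest change), 6 DEGs per day 3 list and 5 genes per interaction. Other genes were named after their values were seen, and some list members are not reported here. The members and lists were chosen with earlier results of these data known. A table of the same series on Tet3 overexpression was not used. Library numbers did not pair the samples.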

Additional observations from a re-analysis of the deposited data

Results flagged for a closer look

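The test of a difference between genotypes passed for 109 genes between Tet3m/m and Tet3+/+ and for 972 between Tet3m/m and Tet3-/-. In log2 units, the effect of Dnmt1 in Tet3m/m exceeded that in Tet3+/+ by 2.28 for Dcn, 1.61 for Smoc2, 1.32 for Ccdc80, 1.28 for Tnc and 1.13 for Col1a2. It exceeded that in Tet3-/- by 3.47 for Col14a1, 2.54 for Ptn, 1.80 for Lbh, 1.60 for Ccnd1 and 1.57 for Col1a2. In Dcn, Smoc2 and Col1a2 the estimate in Tet3+/+ was below 0, and in all 5 genes named against Tet3-/- the estimate there was below 0. These 10 differences kept their direction and passed the test under every alternative run.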

How the results depend on the processing

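The 444 DEGs of Tet3m/m became 405 to 467 under other pseudocounts, filters, scalings, tests and groups in the fit, and 1842 without the fold threshold, which also raised the genes called between Tet3m/m and Tet3+/+ from 109 to 236 and those called against Tet3-/- from 972 to 2572. Of the genes higher on day 3, 20 were DEGs higher and 33 lower with edgeR and 26 and 43 with DESeq2 on recovered reads. Of those lower on day 3, 9 were DEGs lower when the 4 libraries were fitted alone. No named fold change or difference and neither median of the day 3 lists changed sign. Medians of the 27 gene lists were not recomputed under the alternatives. Genes called against Tet3-/- went from 451 more positive and 521 more negative to 1372 and 1200 without the fold threshold. This balance also turned when EV library 1, EV library 2 or Dnmt1 library 1 of Tet3m/m was left out. The cause of these changes was not tested.

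Leaving out 1 library at a time gave 321 to 386 DEGs, a log2 fold change of Dnmt1 of 0.80 to 1.00, 79 to 125 genes called against Tet3+/+ and 765 to 1274 against Tet3-/-. The median of the genes higher on day 3 was then -0.12 to -0.08, with 7 to 13 DEGs higher and 5 to 17 lower, and that of the genes lower on day 3 was 0.0340 to 0.0480, with 66 to 75 and 14 to 18. A library left alone in its group was assumed to vary like the other groups. With a replicate block in Tet3m/m and Tet3-/- (the Tet3+/+ EV numbers are not known) there were 439 DEGs, 101 and 945 genes called between genotypes, and Dnmt1 was at 0.90 with a limma adjusted p of 2.68e-08. The deviations of same-numbered libraries correlated at 0.00446 in Tet3m/m and -0.0250 in Tet3-/-, so the numbers were not taken to pair the samples. The block changed these counts but no call of a gene named by the rules above.

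Of the named genes' values under the alternatives that kept all libraries, 862 kept their call, 15 lost it and 4 gained it, and with 1 library left out 339 kept and 57 lost it. Meltf and Gm7789 lost it at a pseudocount of 0.1, and Ebf2, Wnt3a, Tnnt2, Nog and Cdkn2b, among others, when the 4 libraries were fitted alone. DESeq2 gave no adjusted p for Bhmt, Meltf, Gm7789, Lamc3, Hes3, Wnt3a and Tnnt2. Named genes under a mean of 50 have no value under that filter.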
